A study of Homo sapiens with 10 samples.

Results

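Expression of the NF-κB transcription factor family and its feedback inhibitors was examined in irradiated human proximal tubular cells. The 10 genes are the subunits NFKB1, NFKB2, REL, RELA and RELB, the inhibitors NFKBIA, NFKBIB, NFKBIE and TNFAIP3, and the survival gene BIRC3. They were chosen by name from 61587 gene identifiers, with earlier results of these data known. Each of the 10 had a row in the count table, and all 10 were among the 19006 genes with enough counts to be tested. RPTEC/TERT1 cells are a line of human renal proximal tubular epithelial cells immortalised with telomerase (TERT). Bulk poly-A RNA-seq was available for 5 samples given 10 Gy of gamma irradiation and 5 mock-irradiated control samples, all collected on day 7, with replicates numbered 1 to 5 in both groups. The final number of the cell line label differs from sample to sample, while the design text names RPTEC/TERT1 for all of them. All samples derive from this 1 line, and nothing in the labels says whether replicates were separate cultures, so p-values measure the spread between these samples.

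NF-κB subunits form dimers that are held in the cytoplasm by inhibitor of κB (IκB) proteins. In the canonical pathway, signals from TNF, interleukin-1 or DNA damage lead to phosphorylation and destruction of IκB proteins, and dimers such as RELA with the p50 product of NFKB1 enter the nucleus. In the non-canonical pathway, the NFKB2 precursor p100 is cut to p52, which pairs with RELB. The pathway restrains itself, because genes for IκBα (NFKBIA), the ubiquitin-editing enzyme A20 (TNFAIP3) and several subunits are themselves known NF-κB targets. In tubular epithelium NF-κB is known for driving chemokine and adhesion molecule genes after injury. The irradiation experiment was made to obtain a profile of senescent tubular cells, and the question here is how far the messages for the subunits and for the genes that restrain them moved in that profile. These are RNA levels. Protein, processing of p100 and p105, and nuclear entry were not measured.

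The promoter sequences are shown first because several members of this family are known to be regulated by NF-κB itself. RefSeq windows on GRCh38.p14, from 250 bases before to 50 bases after an annotated start, were found for 8 of the 10 genes, with 13 windows in all (those of RELB and NFKBIE are not shown). They were searched on both strands for the κB consensus, a motif of 10 bases, and overlapping matches were merged. At least 1 match was found in 7 of these 8 genes, which is 87.5%, where 7.09% of 27305 genes had one. Counted by window, 8 of 13 member windows held a match, as did 5.91% of 35116 windows. The stretches below carry matches in capitals, whichever strand they were read on, and are written 5′ to 3′ along the gene's strand. Distances are from RefSeq starts, and the stretches other than those of NFKBIA and BIRC3 overlap an annotated exon.
NFKBIA (chr14:35404801-35404850, minus strand): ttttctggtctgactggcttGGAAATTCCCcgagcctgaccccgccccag
TNFAIP3 (chr6:137867188-137867217, plus strand): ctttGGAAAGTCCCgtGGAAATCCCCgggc
BIRC3 (chr11:102317265-102317378, plus strand): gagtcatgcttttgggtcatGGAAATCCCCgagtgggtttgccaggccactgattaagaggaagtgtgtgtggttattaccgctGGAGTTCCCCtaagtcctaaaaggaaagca
NFKB1 (chr4:102501300-102501329, plus strand): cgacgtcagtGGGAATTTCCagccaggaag
NFKB2, start 2 (chr10:102394462-102394491, plus strand): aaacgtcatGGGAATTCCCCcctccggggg
NFKB2, start 3 (chr10:102395674-102395703, plus strand): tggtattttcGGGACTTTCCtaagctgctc
REL (chr2:60881518-60881547, plus strand): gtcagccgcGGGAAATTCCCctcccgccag
NFKBIB, start 2 (chr19:38899932-38899961, plus strand): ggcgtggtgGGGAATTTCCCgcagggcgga

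TNFAIP3 and BIRC3 each held 2 separate matches, at -67 and -55 and at -199 and -135 bases from the start. NFKB2 held 4 matches over its starts 2 and 3, and NFKB1, REL, NFKBIA and NFKBIB held 1 each. The matches of NFKB2 at -78 from start 2 and at -176 from start 3 are not printed above. Neither window of RELA held a match. Of the 32 target genes with a window, 46.9% had one, and of 21 canonical activation genes 4.76%. A match is a stretch of letters and not a shown binding site, and genes with a match did not all behave alike in the counts. REL has one and its RNA did not pass the test, while NFKBIB has one and had a log2 fold change of 0.44.

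**Figure D1:**
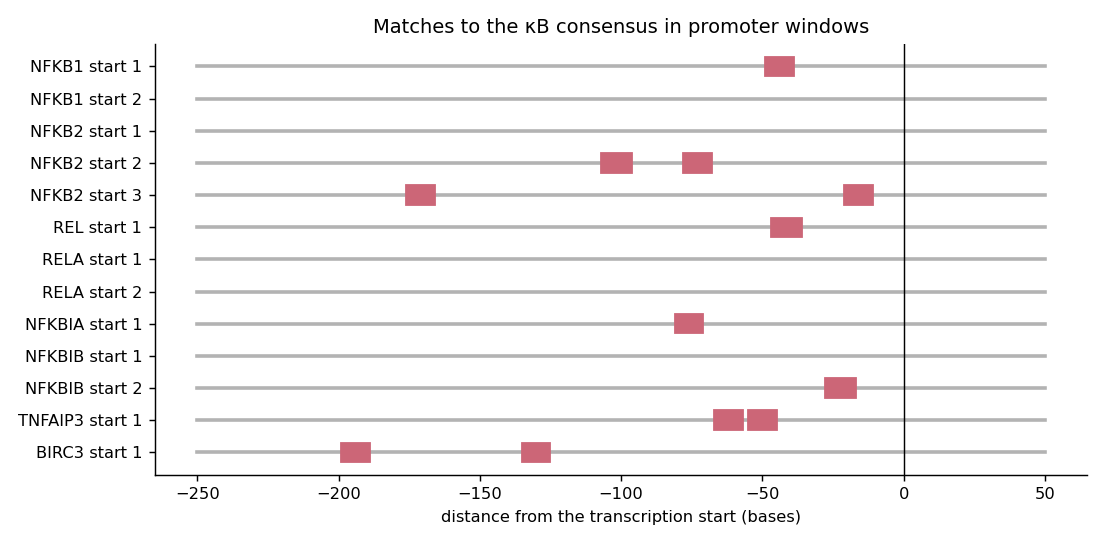
Positions of matches to the κB consensus (red boxes, to scale) in 13 promoter windows of 8 genes (grey lines), by distance from the transcription start in bases. Matches lie before the start in each window that has one, and both RELA windows and the first windows of NFKB2 and NFKBIB are empty, as is the second window of NFKB1.

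Of the 10 genes, 9 were higher in irradiated cells at an adjusted p-value under 0.05 and 0 were lower, with replicate number as a block in edgeR's quasi-likelihood test. Across all genes tested, 46.6% were called, 23.9% higher and 22.7% lower. Because the members were chosen with earlier results known, these shares describe the set and do not test it. A fitted rise of more than 2-fold was found for 6 members (NFKB2, RELB, NFKBIA, NFKBIE, TNFAIP3 and BIRC3), against 5.26% of all genes. For the same 9 members each irradiated sample exceeded each control sample, whereas the groups did not overlap for 26.7% of all genes, 14.6% with the irradiated samples above. The fitted log2 fold change of REL was also positive, so no member was lower at an unadjusted p under 0.05 either, and DESeq2 called 0 members lower as well. The median log2 fold change was 0.73 over the 5 subunits and 1.57 over the 4 inhibitors and BIRC3, beside -0.01 over all 19006 genes. Called genes were higher in 51.4% of cases after TMM normalisation and in 38.0% when counts were scaled by library size alone, and the same 9 calls among the members stood. Irradiation of a bulk culture can change both the number of cells in a given state and the RNA per cell, and these counts cannot tell these apart.

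**Figure D2:**
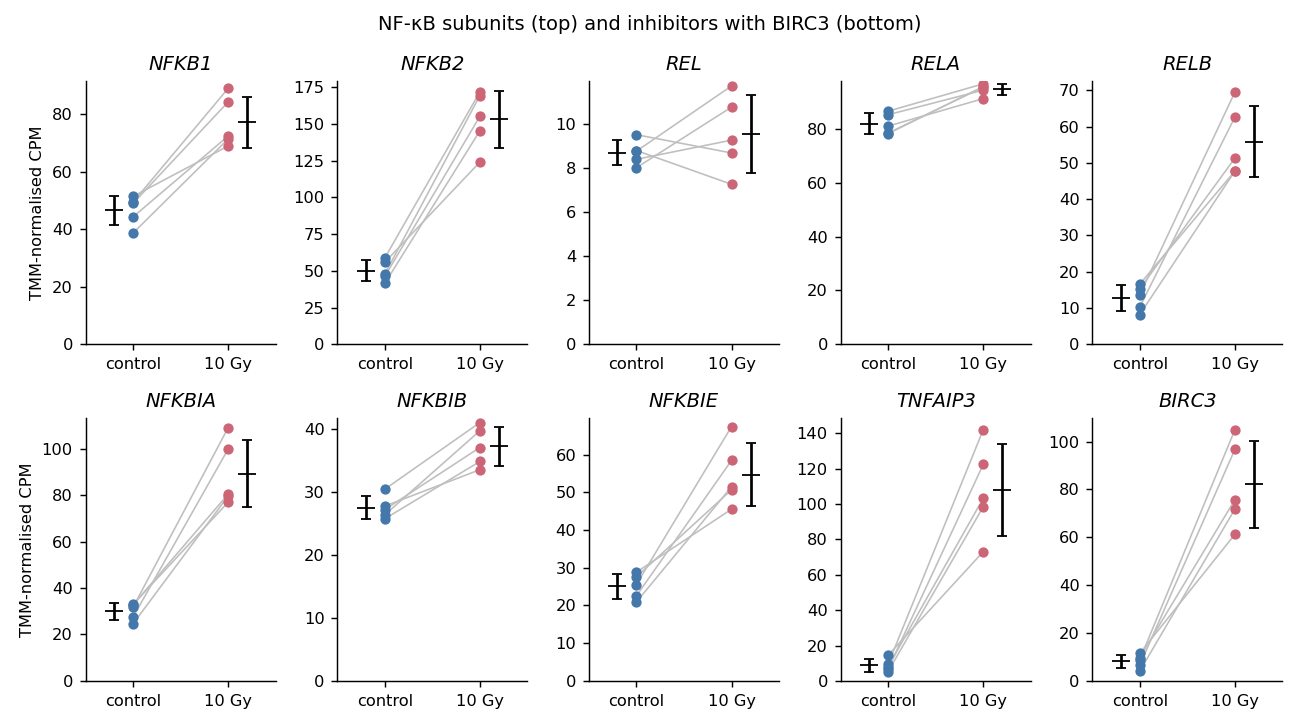
Expression of the 10 genes in CPM (TMM-normalised counts scaled to a common library total), with 1 dot per sample, grey lines joining samples of the same replicate number, and black bars giving mean ± SD (n = 5 per group). The groups do not overlap for 9 genes, REL being the exception, and the axes, which start at 0, differ between genes.

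Among the subunits, those of the non-canonical pair moved most. RELB, which pairs with p52, lies on chromosome 19 (45001461 to 45038192). Its expression in control replicates 1 to 5 was 8.18, 16.6, 15.3, 13.6 and 10.2 CPM, and in irradiated replicates 1 to 5 it was 47.7, 47.7, 51.3, 69.5 and 62.6 CPM. The lowest irradiated sample therefore stood well above the highest control, and control replicate 1 was the lowest of all. The log2 fold change of RELB was 2.15 ± 0.17 (SE; adjusted p = 7.43e-05), rank 287 of the 19006 genes by size of the rise. NFKB2, on chromosome 10 (102394110 to 102402524), encodes p100 and p52. Its level was 46.2, 55.8, 58.7, 47.7 and 41.4 CPM in controls and 155, 124, 172, 169 and 145 CPM in irradiated samples. Irradiated replicate 2 was the lowest of its group, yet above each control. The log2 fold change of NFKB2 was 1.62 ± 0.10 (SE; adjusted p = 3.28e-05).

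NFKB1, on chromosome 4 (102501330 to 102617302), encodes p105 and p50, the usual partner of RELA. It stood at 38.7, 51.4, 44.3, 49.4 and 49.0 CPM in controls and at 71.4, 69.0, 72.5, 89.0 and 84.3 CPM in irradiated samples. The groups were apart by a margin smaller than that of NFKB2, and the log2 fold change was 0.73 ± 0.07 (SE; adjusted p = 0.000163). RELA, on chromosome 11 (65653599 to 65663090), encodes p65, the main transactivating subunit of the canonical pathway. Control samples held 85.3, 81.0, 86.6, 78.4 and 78.2 CPM of RELA, and irradiated samples 94.4, 91.2, 96.7, 95.5 and 95.7 CPM. These values were the tightest of the family, with a coefficient of variation of 4.71% in controls and 2.23% in irradiated samples, so a 1.16-fold difference still passed the test (log2 fold change 0.21 ± 0.04 SE, adjusted p = 0.00474). The groups did not overlap.

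REL, on chromosome 2 (60881491 to 60931612), encodes c-Rel, a subunit best known from lymphocytes. Its level was 8.40, 9.52, 8.80, 8.77 and 8.02 CPM in controls and 9.27, 8.69, 7.27, 11.7 and 10.8 CPM in irradiated samples. The groups overlapped, with irradiated replicates 4 and 5 above all controls and irradiated replicate 3 below them, and REL was higher in 3 of 5 pairs. The log2 fold change was 0.12 (95% interval -0.16 to 0.39, adjusted p = 0.447), so a rise of the size seen for NFKB1 or NFKBIB lies outside the interval. In the annotation used here 33.3% of the exon length of REL is shared with another gene on the same strand, so reads of the shared exons may be missing from its count.

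Per exon length, the order of the subunits changed between the groups. In controls RELA came first at 15.0 ± 0.7 CPM per kb, followed by NFKB2 at 8.95 ± 1.28, RELB at 4.26 ± 1.16, NFKB1 at 2.97 ± 0.33 and REL at 0.508 ± 0.033 CPM per kb (SD, n = 5 each). Samples of RELB and NFKB1 overlapped in controls. In irradiated cells the highest mean was that of NFKB2 at 27.4 ± 3.5 CPM per kb, then RELB at 18.6 ± 3.3, whose samples overlapped with those of both NFKB2 and RELA (17.4 ± 0.4), then NFKB1 at 4.93 ± 0.57 and REL at 0.557 ± 0.102 CPM per kb. As a share of the summed level of the 5 subunits per kb, RELA accounted for 43.4% to 52.8% in control samples and 22.6% to 27.97% in irradiated samples. The share of NFKB2 was 25.8% to 30.2% in controls and 37.0% to 43.6% after irradiation, and that of RELB was 9.23% to 16.2% and 24.1% to 29.9%. These shares depend on exon lengths from the annotation, which count the exons of all isoforms, and are given without a test.

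The inhibitors and BIRC3 spanned a wider range than the subunits. TNFAIP3, on chromosome 6 (137867214 to 137883314), encodes A20, which removes ubiquitin chains that the canonical pathway needs. Its level was 5.27, 14.5, 8.005, 9.40 and 6.69 CPM in controls and 98.5, 73.1, 103, 142 and 122 CPM in irradiated samples. The lowest irradiated sample, replicate 2, and the highest control, also replicate 2, belong to the same pair. The log2 fold change of TNFAIP3 was 3.67 ± 0.28 (SE; adjusted p = 6.70e-05), or 12.7-fold with a range of 10.5 to 15.5 for 1 standard error, and it ranked 45 of 19006 genes. BIRC3, on chromosome 11 (102317484 to 102339403), encodes cIAP2, a ubiquitin ligase of TNF receptor complexes that protects from cell death. It stood at 4.13, 11.5, 9.71, 8.83 and 6.59 CPM in controls and at 71.8, 61.2, 75.7, 105 and 96.7 CPM in irradiated samples. The groups were far apart, with a log2 fold change of 3.37 ± 0.25 (SE; adjusted p = 5.65e-05) and rank 72.

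NFKBIA, on chromosome 14 (35401079 to 35404749), encodes IκBα, the inhibitor that is resynthesised fastest after activation. Its level was 24.6, 32.9, 32.7, 31.7 and 27.5 CPM in controls and 79.6, 77.0, 80.4, 109 and 99.8 CPM in irradiated samples. Irradiated replicates 4 and 5 were the highest, and the log2 fold change was 1.57 ± 0.10 (SE; adjusted p = 3.95e-05). NFKBIE, on chromosome 6 (44258166 to 44265788), encodes IκBε and stood at 20.9, 28.8, 27.6, 25.5 and 22.6 CPM in controls. In irradiated samples NFKBIE was at 51.5, 45.5, 50.7, 67.4 and 58.4 CPM, above each control, with a log2 fold change of 1.12 ± 0.12 (SE; adjusted p = 0.000234). NFKBIB, on chromosome 19 (38899700 to 38908893), encodes IκBβ. It held 25.8, 27.8, 30.5, 26.4 and 27.2 CPM in controls and 34.9, 33.6, 41.1, 39.8 and 37.1 CPM in irradiated samples. This was the smallest rise among the inhibitors, at a log2 fold change of 0.44 ± 0.05 (SE; adjusted p = 0.000491), and its groups did not overlap either. Per exon length NFKBIB had the highest mean of the inhibitors in controls, at 11.8 ± 0.8 CPM per kb, with samples overlapping those of NFKBIE, and TNFAIP3 was lowest of the 4 at 1.36 ± 0.55. After irradiation NFKBIA had the highest mean at 26.3 ± 4.2 CPM per kb, again overlapping with NFKBIE, while TNFAIP3 at 16.7 ± 4.0 and NFKBIB at 16.04 ± 1.4 overlapped (SD, n = 5 each).

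To compare members with each other free of any library scaling, ratios of 2 genes' counts within a sample were taken for 8 pairs of genes. An exact permutation test, two-sided, with 252 arrangements of the group labels, was used, whose smallest possible p is 0.00794, with Benjamini-Hochberg adjustment over the 8 ratios. RELB to RELA had a log2 ratio of -2.73 ± 0.43 in controls and -0.78 ± 0.23 in irradiated samples (SD, n = 5 each), a difference of 1.94 that was higher in 5 of 5 pairs (permutation p = 0.00794, adjusted 0.00907). NFKB2 to NFKB1 rose from 0.10 ± 0.26 to 0.99 ± 0.19 on the log2 scale, a difference of 0.89 with the same p-values. Within pairs that difference varied little (SD 0.12), although both numerator and denominator varied between samples. REL to RELA did not pass, with -3.23 ± 0.11 in controls and -3.33 ± 0.27 in irradiated samples (permutation p = 0.54).

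NFKBIA was set against RELA, the subunit with the smallest rise that passed the test, and inhibitors were set against each other. NFKBIA to RELA went from -1.46 ± 0.20 to -0.10 ± 0.21 on the log2 scale, a difference of 1.36. NFKBIE to NFKBIA went down from -0.25 ± 0.05 to -0.70 ± 0.06, a difference of -0.45, and NFKBIB to NFKBIA from -0.11 ± 0.14 to -1.25 ± 0.20, a difference of -1.14. NFKB2 and RELB, with log2 fold changes of 1.62 and 2.15, rose by as much as or more than NFKBIA at 1.57. Summed per kb, the 3 IκB genes went from 30.4 ± 2.9 to 63.5 ± 8.2 CPM and the 5 subunits from 31.7 ± 2.7 to 68.9 ± 6.5 CPM (SD, n = 5 each). The ratio of these sums was not tested, and unprocessed p105 and p100, counted here with the subunits, also have an IκB-like role. Of the 3 IκB genes, NFKBIA rose most. TNFAIP3 to NFKBIA rose from -1.85 ± 0.41 to 0.25 ± 0.19, a difference of 2.10. BIRC3 was set against BIRC2, its neighbour on chromosome 11 that encodes the related cIAP1, and the ratio rose from -3.03 ± 0.59 to -0.13 ± 0.21, a difference of 2.90. BIRC2 itself rose from 62.8 ± 2.1 to 88.4 ± 7.0 CPM (SD, n = 5 each; log2 fold change 0.49 ± 0.04 SE, adjusted p = 0.00013). Each of these 5 ratios shifted in the same direction in 5 of 5 pairs, with a permutation p of 0.00794 and an adjusted value of 0.00907. A paired permutation test over 5 pairs cannot go below 0.0625, and gave that value for the 7 ratios that passed here.

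**Figure D3:**
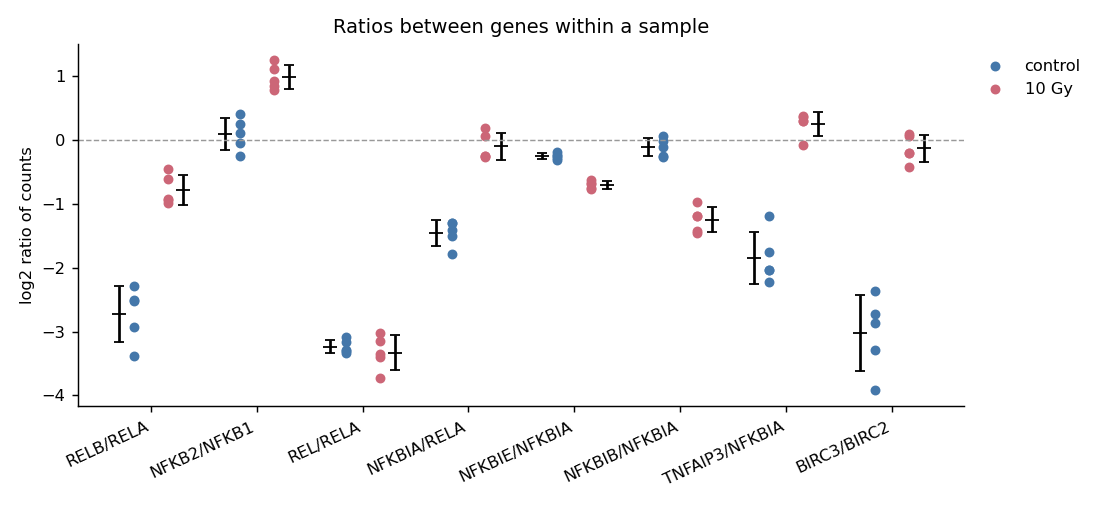
Ratios of 2 genes' counts within a sample, on a log2 scale, for control (blue) and irradiated (red) samples, with 1 dot per sample and black bars giving mean ± SD (n = 5 per group). The groups are apart for 7 ratios and overlap for REL/RELA, and TNFAIP3/NFKBIA crosses 0, from -1.85 to 0.25.

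The size of the response differed between pairs in a way that most members shared. Pair 2 showed the smallest difference between irradiated and control sample for 8 of the 10 genes. On the log2 scale TNFAIP3 differed by 2.33 in pair 2 and by 3.69 to 4.22 in the other pairs, and RELB by 1.53 in pair 2 and by 1.75 to 2.61 in the others. Both ends contributed, because control replicate 2 was the highest control for 7 of the 10 genes and irradiated replicate 2 the lowest irradiated sample for 9 of 10. Control replicate 1, by contrast, was the lowest control for 7 genes, and irradiated replicate 4 the highest irradiated sample for 7. How often this held over all genes was not examined. Several members also varied together, so they are not 10 separate observations of a pair. Library depth moved with this in pair 2, where the control had the most counts of the series (131555873) and the irradiated sample the fewest (66269311), and its part in the result was not tested. TNF, a ligand that activates the canonical pathway, ranged from 0.832 to 3.11 CPM in controls and from 16.5 to 26.8 CPM in irradiated samples. Without replicate 2 the log2 fold change of TNFAIP3 was 4.01, that of BIRC3 3.63 and that of RELB 2.32, and the 9 calls stood.

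**Figure D4:**
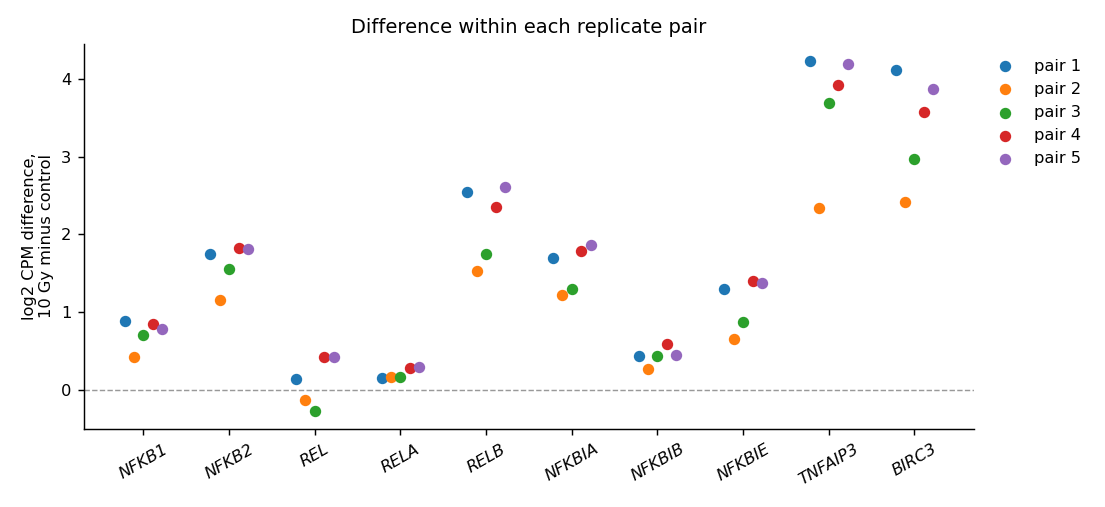
Difference in log2 CPM between the irradiated and the control sample of each replicate pair, for the 10 genes. Pair 2 (orange) is the lowest for 8 genes, and REL is the one gene with pairs below 0, at -0.13 and -0.28.

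Genes that NF-κB is known to activate outside the family were taken from a list of 42, of which 41 had a row and 32 had enough counts to be tested. Of these 32, 26 rose, 2 fell and 4 did not pass, where 23.9% of all genes rose and 22.7% fell, and the median log2 fold change was 1.60. The list was written with earlier results of these data in view. The 3 largest rises were those of CSF2, a myeloid growth factor, at 0.134 ± 0.109 CPM in controls and 3.18 ± 1.46 after irradiation (log2 fold change 4.47), of the alarmin IL1A, at 0.0934 ± 0.0254 and 1.5 ± 0.70 CPM (3.897), and of the neutrophil chemokine CXCL8 (3.78). Controls held 35 counts of CSF2 and 13 of IL1A at most, so these folds rest on few counts. Both reached the minimum of 200 counts only through the irradiated samples, so they are among the 32 only because they were high there. At the other end, CFB, a complement factor, fell from 0.397 ± 0.050 to 0.232 ± 0.070 CPM (log2 fold change -0.80, adjusted p = 0.0121). GADD45B, a stress gene that restrains JNK signalling, fell from 36.7 ± 15.5 to 20.5 ± 1.4 CPM (SD, n = 5 each), with control replicate 3 at 63.9 CPM and the other controls at 34.0 or less. RIPK2, a kinase downstream of NOD receptors, did not pass (log2 fold change 0.06). For CFB, 42.8% of the exon length is shared with another gene on its strand, so reads of the shared exons may be missing from its count.

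Other feedback regulators of the pathway, not all of them plain inhibitors, moved less and in both directions. Of 15 tested, 9 rose, 2 fell and 4 did not pass (all genes 23.9% higher and 22.7% lower), with a median log2 fold change of 0.31. The largest rises were those of NFKBID, which encodes the nuclear protein IκBNS, from 4.13 ± 0.91 to 9.81 ± 0.89 CPM (log2 fold change 1.27), of TNIP1, a partner of A20, from 161 ± 19 to 337 ± 46 CPM (1.06), and of the RNase gene ZC3H12A, from 18.8 ± 1.3 to 29.0 ± 2.0 CPM (0.63). BCL3 encodes an atypical IκB protein that works in the nucleus with p50 and p52 dimers, and it went the other way. Its level was 64.4 to 78.1 CPM in controls and 33.1 to 62.5 CPM in irradiated samples, lower in 5 of 5 pairs (log2 fold change -0.81 ± 0.14 SE, adjusted p = 0.00231). COMMD1, which promotes the breakdown of RELA, also fell (log2 fold change -0.29, adjusted p = 0.00213), with 33.6% of its exon length shared with another gene. N4BP1 did not pass (log2 fold change 0.02).

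Genes that carry the canonical signal from receptor to IκB kinase were called about as often as genes in general. Of 25 tested, 8 rose, 2 fell and 15 did not pass, where 46.6% of all genes were called (23.9% higher, 22.7% lower), and the median log2 fold change was 0.02 beside -0.01 over all genes. The 2 called lower became 8 when counts were scaled by library size alone, 5 with upper-quartile normalisation and 1 without the replicate block. IRAK2, a kinase-like adaptor of interleukin-1 and Toll-like receptors, stood out with a rise from 6.10 ± 1.93 to 48.6 ± 8.3 CPM (SD, n = 5 each; log2 fold change 3.02, adjusted p = 3.60e-05). BCL10 rose from 33.4 ± 4.7 to 69.8 ± 11.3 CPM and its partner MALT1 from 340.5 ± 67.2 to 602 ± 114 CPM, with log2 fold changes of 1.06 and 0.82. The largest falls were small, at -0.27 for TAB1, a subunit of the TAK1 kinase complex, and -0.26 for the adaptor TRAF5. UBE2V1 followed at -0.21 without passing (adjusted p = 0.148), and 43.2% of its exon length is shared with another gene.

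In the list for the non-canonical arm, which ends in NFKB2 and RELB, 12 of 14 genes were tested. Of these, 9 rose, 1 fell and 2 did not pass, where 46.6% of all genes were called and 23.9% were higher. The median log2 fold change was 0.35. The list mixes genes that drive this arm with genes that restrain it, such as BIRC2, so the count gives no direction of signalling. Genes called higher numbered 7 with library size only and 7 without the replicate block. LTB encodes lymphotoxin beta, the ligand of the lymphotoxin beta receptor. It went from 10.8 ± 5.9 CPM in controls (4.57 to 19.6) to 198.5 ± 43.6 CPM after irradiation (134 to 257), a log2 fold change of 4.34 ± 0.37 (SE; adjusted p = 9.98e-05). The receptor genes TNFRSF11A (RANK) and CD40 rose as well, with log2 fold changes of 1.34 and 0.77. MAP3K14 encodes NIK, the kinase that starts processing of p100, and its level was 38.7 ± 8.8 CPM in controls and 38.6 ± 4.9 in irradiated samples (log2 fold change 0.02 ± 0.09 SE, adjusted p = 0.851). NIK is known to be set mainly by protein breakdown, which RNA does not show, and 15.1% of the exon length of MAP3K14 lies under exons of the opposite strand. TNFRSF13C, the BAFF receptor gene of B cells, fell from 0.422 ± 0.110 to 0.107 ± 0.050 CPM, a level near the detection limit, and TNFSF13B did not pass (log2 fold change -0.09).

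The 6 genes listed as known to relay DNA damage to NF-κB had small differences at day 7. PIDD1, a scaffold of the nuclear complex with RIPK1 and NEMO, rose from 15.4 ± 3.3 to 21.7 ± 4.8 CPM (log2 fold change 0.49, adjusted p = 0.00138). PIAS4, the SUMO ligase that modifies NEMO, fell by 0.19 on the log2 scale (adjusted p = 0.00948), a call that was lost without replicate 5, when 0 genes of this list were lower. ATM (log2 fold change 0.12), ERC1 (0.09) and PARP1 (-0.03) had adjusted p-values between 0.0687 and 0.698 and were not called.

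**Figure D5:**
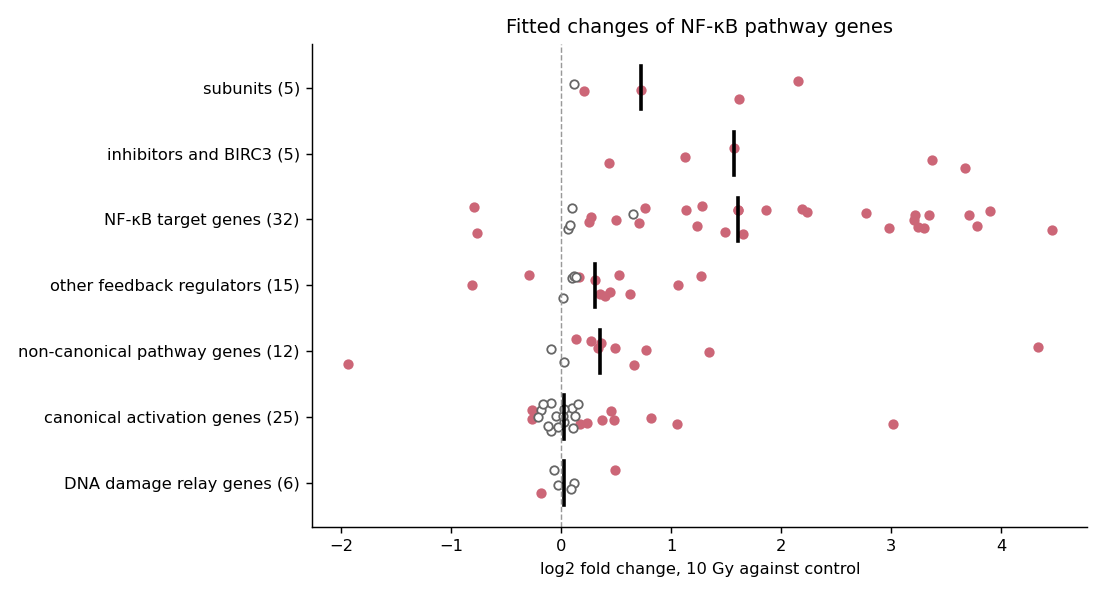
Fitted log2 fold changes of the genes tested in each group (number in brackets), with filled red dots for an adjusted p-value under 0.05, open dots for other genes and a black bar at the median. Medians were 0.73 for subunits, 1.57 for inhibitors with BIRC3 and 1.60 for target genes, and 0.02 for canonical activation genes.

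Genes whose expression followed single members most closely over the 10 samples were sought among 12830 other genes with a mean of at least 1 log2 CPM. For RELB the 5 highest Pearson correlations were those of TNF (0.994), CSF1 (0.994), LTB (0.993), CX3CL1 (0.990) and IL32 (0.989). For NFKB2 they were TNFRSF10B, SMAD3, ARHGEF4, CXCL2 and CLEC4E (0.994 to 0.996), and for NFKBIA they were DUSP10, CSF1, C1QL3, HDAC9 and IER5 (0.989 to 0.993). The points share the difference between the groups, which by itself gives high values. With group means taken off, TNF (0.924) and CSF1 (0.915) stayed among the 5 highest for RELB, where they were joined by LRRC1 (0.925) and TXLNG (0.916). SMAD3 (0.955), TNFRSF10B and ARHGEF4 stayed among the 5 for NFKB2. For NFKBIA none of the first 5 stayed, and PARP14 (0.950), SGK3, USP31, SLC16A1-AS1 and PHC2 took their place.

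Total counts on genes ran from 66269311 to 131555873 per sample, and the members held between 338 counts (BIRC3) and 15923 counts (NFKB2) in a sample. Of 14 tubule markers, 11 were tested. Of these, 2 rose, 1 fell (CDH16, from 246 ± 66 to 147 ± 56 CPM) and 8 did not pass. Some markers of the differentiated proximal tubule were tested and others were under the minimum. The brush border gene ANPEP stood at 248 ± 76 CPM in controls and 296 ± 96 CPM in irradiated samples and did not pass (adjusted p = 0.373). MME, GGT1 and CUBN were also tested and did not pass (adjusted p = 0.320, 0.0549 and 0.240). LRP2 (17 counts over all samples), HNF4A (12) and SLC34A1 (86) were under the minimum. Some markers of other cells rose with irradiation. Of 7 leukocyte markers, 3 were tested and 2 rose (CD14 and ITGAM). ITGAM held at most 11 counts in a control and reached the minimum of 200 only through the irradiated samples. The sum of the 3 tested was 0.487 to 0.685 CPM in controls and 1.79 to 2.48 CPM in irradiated samples. CD3E had 3 counts in all. Of 5 fibroblast markers, 2 were tested and rose (COL1A1, at 18.8 ± 3.3 CPM in controls and 32.2 ± 4.7 CPM after irradiation, and DCN, together 15.7 to 23.3 and 28.3 to 39.9 CPM), with COL3A1 at 4 counts and LUM at 2. Of 4 endothelial markers, 3 were tested and PECAM1 and CDH5 rose (together with VWF 1.28 to 2.40 and 4.15 to 6.07 CPM), with KDR at 2 counts. Their part in the results for the NF-κB genes was not tested.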

How the data were processed

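Counts per gene were made by the authors, who trimmed adapters with Trim-Galore, used STAR for alignment to GRCh38 and for gene counting, and deposited whole-number counts without normalisation. The annotation release is not given in the sources used here. The labels name a TruSeq library kit and the study's methods an NEBNext kit. No count was recorded for 97.9% of 425 long non-coding RNA genes that lie fully beneath opposite-strand exons, and for 28.8% of 12007 free of such overlap, so reads where genes overlap are treated as lost. Members have at most 1.89% of their exon length there. Coordinates, exon lengths and overlaps come from a GENCODE annotation of GRCh38, and 61415 identifiers matched it.

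A gene was tested if its counts summed to 200 or more over the 10 samples, with edgeR 4.0.16 in R 4.3.3 (TMM, glmQLFit, glmQLFTest, replicate number as a block as in the study's model, Benjamini-Hochberg over all genes tested, threshold 0.05). Each SE is the absolute log2 fold change over the root of its F. Samples sharing a replicate number were treated as pairs, because deviations from group means correlated by 0.22 to 0.51 for each of the 5 numbers (different numbers -0.35 to 0.32). Ratios used counts with 0.5 added. Members and lists were chosen with earlier results of these data known. Named genes are the members, the 3 highest and 3 lowest log2 fold changes of each other list, BIRC2, and the 5 genes most like RELB, NFKB2 or NFKBIA. Alternatives were DESeq2 1.42.0, other scalings and filters, no replicate block and leaving out each replicate. Some genes that the naming rule selects are not reported here. One target gene had no row under its symbol and was not analysed here. Figures were drawn with matplotlib 3.10.9.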

Additional observations from a re-analysis of the deposited data

Results flagged for a closer look

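Among 98 groups of 5 values, the most extreme sample was far from the others by Dixon's criterion in 8, where chance gives about 4.9, and the values are not independent. None was the level of a member. Irradiated replicate 2 was low for the log2 ratio of TNFAIP3 to NFKBIA, at -0.075 (other irradiated samples 0.29 to 0.38), low for MALT1 at 398 CPM (others 640.1 to 666), and high for BCL3 at 62.5 CPM (others 33.1 to 40.7). Control replicate 3 was high for TNIP1 at 194 CPM (others 151 to 157), for GADD45B at 63.9 CPM (others 26.5 to 34.0) and for TNFSF13B at 0.887 CPM (others 0.522 to 0.596), and low for TNFRSF11A at 2.11 CPM (others 3.32 to 3.50). Control replicate 4 was high for CSF2 at 0.325 CPM (others 0.0489 to 0.114).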

How the results depend on the processing

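The 9 members called higher kept their direction and stayed past the threshold in each of the 12 alternative fits, and REL stayed short of it with log2 fold changes of 0.04 to 0.22. For RELA, the smallest of the 9, the log2 fold change ran from 0.13 to 0.23 and the adjusted p-value reached 0.0334 at most. Of the counts under alternatives, 186 stayed within 1.5 times and 6 did not. Canonical activation genes called lower numbered 2, against 8 with library size only, 5 with upper-quartile normalisation and 1 without the replicate block. DNA damage relay genes called lower numbered 1, against 2 with library size only and 0 to 1 when a replicate was left out (0 without replicate 5, which ends the call of PIAS4), and those called higher 1 to 2 (2 without replicate 3). Library size only moved the median of all genes by -0.08 on the log2 scale. Leaving out the replicate block changed no call of a member. With the replicate numbers as pairs in the exact permutation test, whose smallest p is 0.0625, the 7 ratios that had passed had an adjusted p of 0.0714, with differences of 1.94 (RELB/RELA), 0.89 (NFKB2/NFKB1), 1.36 (NFKBIA/RELA), -0.45 (NFKBIE/NFKBIA), -1.14 (NFKBIB/NFKBIA), 2.10 (TNFAIP3/NFKBIA) and 2.90 (BIRC3/BIRC2). The cause of these shifts was not tested, apart from the smallest p that pairs allow. With 1 added to each count or a replicate left out, the ratios kept their direction and side of the threshold.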

Other observations

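With group means taken off, the 10 samples also showed which members varied together from sample to sample. Pearson correlations of log2 CPM were 0.98 for RELB and BIRC3, 0.97 for NFKBIA and NFKBIE, 0.93 for RELB and NFKBIA and 0.91 for TNFAIP3 and BIRC3. RELA did not follow them, with 0.06 to RELB, 0.10 to NFKBIA and -0.04 to TNFAIP3, and its highest value was 0.64, to NFKB2. NFKB1 and NFKB2 stood at 0.24. These values describe 10 samples that share replicate numbers and library depth, and they carry no test.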
